A study of Mus musculus with 12 samples.

Results

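The death receptor pathway was described with 10 genes: the receptors Eda2r, Tnfrsf10b, Fas and Tnfrsf1a, the adaptor and platform genes Pidd1, Fadd, Tradd and Ripk1, the initiator caspase gene Casp8 and its inhibitor Cflar. They were chosen by gene symbol with earlier results of these same arrays known, among them a higher Eda2r signal in the arrays labelled E2f8 KO than in WT. All values of Eda2r are therefore given as a description, with no test, and calls of the other genes are places in a fit over all genes, not independent evidence. Of the 10 genes, 9 had a probe set annotated to that symbol alone (11 probe sets, 3 of them for Cflar), out of 19938 such genes on the array. No probe set was listed for Ripk1, so no signal of it is given.

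RNA came from cells of the spleens of 3-month-old mice, sorted as positive for the erythroid surface marker Ter119 and high in CD71, the transferrin receptor of erythroblasts. The 12 single-channel arrays fall into 4 groups of 3 arrays each: mice lacking both Rb and E2f8 (DKO), Rb knockout mice (Rb KO), E2f8 knockout mice (E2f8 KO) and wild-type mice (WT). The sources used here give no strain, sex, form of the alleles or Cre driver. Rb1 encodes the retinoblastoma protein, which holds back E2F transcription factors, and E2f8 encodes an E2F that represses transcription. All signals below are log2 values, and 12980 genes passed a filter on dim probe sets and were tested together. A gene is called where its adjusted p in limma's fit over all of these genes is under 0.05.

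Death receptors are surface proteins of the tumour necrosis factor receptor family. A bound receptor gathers adaptors such as FADD, which bring in procaspase-8, and active caspase-8 starts the caspase cascade. The product of Cflar (c-FLIP) sits in the same complex and limits that activation. TNF receptor 1 first binds TRADD and RIPK1, and the complex so formed can drive NF-kB signalling or cell death. PIDD1 carries a death domain too, but assembles with RAIDD and caspase-2 in the PIDDosome. Eda2r, Tnfrsf10b, Fas and Pidd1 are known as genes that p53 can induce. In erythropoiesis Fas is known for limiting the number of early erythroblasts in the spleen.

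The promoters of Eda2r and Pidd1, which were higher in every array labelled DKO than in all other arrays, are shown here with that of Fadd, the member with a match to an E2F site. They are RefSeq sequences of build GRCm38.p6 from 250 bases before to 50 bases after the annotated start, read 5′ to 3′ on the gene's strand. Lower case is the plain sequence, and capitals mark an E2F match.
Eda2r, chrX:97377160-97377459, minus strand: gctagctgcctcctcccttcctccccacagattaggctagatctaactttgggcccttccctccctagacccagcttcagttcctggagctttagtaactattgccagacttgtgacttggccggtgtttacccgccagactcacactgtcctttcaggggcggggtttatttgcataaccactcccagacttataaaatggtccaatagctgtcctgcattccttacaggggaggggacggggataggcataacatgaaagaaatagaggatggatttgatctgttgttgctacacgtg
Pidd1, chr7:141443976-141444275, minus strand: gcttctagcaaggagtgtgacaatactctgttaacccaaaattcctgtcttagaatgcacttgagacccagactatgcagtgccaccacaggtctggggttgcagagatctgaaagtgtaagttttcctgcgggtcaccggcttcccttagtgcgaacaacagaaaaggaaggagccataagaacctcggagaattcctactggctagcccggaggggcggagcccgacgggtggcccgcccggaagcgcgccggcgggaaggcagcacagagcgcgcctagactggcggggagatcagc
Fadd, chr7:144582392-144582691, minus strand: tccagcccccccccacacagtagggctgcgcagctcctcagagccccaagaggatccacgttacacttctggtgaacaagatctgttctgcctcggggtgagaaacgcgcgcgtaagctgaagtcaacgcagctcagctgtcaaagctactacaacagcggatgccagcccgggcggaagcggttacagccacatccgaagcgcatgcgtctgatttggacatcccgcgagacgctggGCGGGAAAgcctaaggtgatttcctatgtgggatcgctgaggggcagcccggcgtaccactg
The E2F sites searched on both strands were TTTCGCGC, TTTGGCGC, TTTCCCGC and TTTGCCGC, and the other motif was the p53 consensus decamer. An E2F site was present in 2.26% of 32851 RefSeq promoters of 300 bases and the decamer in 8.36%. Of the 10 listed genes, 8 had a promoter in the table, Ripk1 among them and Tnfrsf10b and Tradd not. Of these 8, 1 held an E2F site (Fadd, as GCGGGAAA, the reverse strand of TTTCCCGC, starting 12 bases before the start) and 0 held the decamer. These are descriptions of the letters in short windows. The windows of Pidd1 and Casp8 lie inside their genes, whose outer 5′ ends are at 141447565 and 58795233. The outermost starts of these genes were thus not covered.

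Some arrays stood apart, and markers of cell types other than erythroblasts gave signal. Rb1 had signals of 11.98 to 12.23 in the arrays labelled DKO, 12.33 to 12.53 in those labelled Rb KO, 11.68 to 11.74 in those labelled E2f8 KO and 12.71 to 13.02 in WT, so that it was lowest where the label keeps Rb. E2f8 stood at 13.09 to 13.17 in the arrays labelled DKO, 11.68 to 12.52 in those labelled Rb KO, 12.74 to 12.89 in those labelled E2f8 KO and 11.70 to 12.28 in WT. The probe sets may lie outside the deleted parts, in which case they check nothing, and genotype names are the labels of the arrays in every direction given here. Erythroid markers (11 measured of 15) averaged 12.22 to 13.04 in every array. B cell markers (13 of 15) averaged 6.15 to 7.11 in DKO and 9.27 to 11.6 in Rb KO, lay between 7.45 and 7.80 in E2f8 KO, and averaged 9.97 to 11.4 in WT. Replicate 1 of Rb KO was the lowest of its group. Macrophage markers (18 of 19) averaged 7.04 to 7.49 in DKO and 8.48 to 8.72 in Rb KO, lay between 8.04 and 8.17 in E2f8 KO, and averaged 8.98 to 9.77 in WT. Granulocyte markers (16 of 18) averaged 6.75 to 10.1 in DKO, with replicate 3 highest, and 6.80 to 6.88 in Rb KO, lay between 8.002 and 8.46 in E2f8 KO, and averaged 6.31 to 6.45 in WT. Xist was at 3.99 in replicate 3 of DKO and 5.22 in replicate 3 of E2f8 KO, against 11.30 to 12.18 in the other arrays, and Eif2s3y, a Y-linked gene, was high in the same arrays (7.82 and 8.17), so that these differ from the rest in sex. In sorted bulk RNA, fewer cells of a type and less RNA per cell cannot be told apart.

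Among the receptors, Eda2r and Tnfrsf10b stood far higher in the arrays labelled DKO than in any other array. Eda2r encodes a receptor for the A2 form of ectodysplasin. Its signals were 9.40, 9.46 and 10.10 in DKO, 5.37, 5.33 and 5.26 in Rb KO, 7.08, 7.34 and 7.70 in E2f8 KO and 5.24, 5.18 and 5.45 in WT. The DKO arrays lay above the E2f8 KO arrays and these above all others, while Rb KO and WT overlapped. Eda2r was higher by 4.36 ± 0.20 (SE, n = 3 per group) in DKO than in WT, 20.6-fold, and by 2.08 ± 0.20 in E2f8 KO than in WT. It differed by 0.03 ± 0.20 between Rb KO and WT and by 2.28 ± 0.20 between DKO and E2f8 KO. The mean of Eda2r in WT, 5.29, was under the filter level of 5.84, and the gene passed through the groups where it was high. Replicate 3 was the highest array of both DKO and E2f8 KO, and the difference between DKO and WT was 4.14 without that DKO array. Eda2r lies on the X chromosome, and the part of the sex difference in its level was not tested.

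Tnfrsf10b, the mouse receptor for the death ligand TRAIL, had a different pattern over the groups. Its signals were 8.36, 8.48 and 8.75 in DKO, 5.95, 5.93 and 5.96 in Rb KO, 6.07, 6.34 and 6.51 in E2f8 KO and 6.02, 6.51 and 6.22 in WT. Each DKO array lay above all other arrays, Rb KO lay just below E2f8 KO and WT, and E2f8 KO and WT overlapped. Outside DKO, Tnfrsf10b averaged 5.94 in Rb KO, 6.31 in E2f8 KO and 6.25 in WT, near the filter level of 5.84. Whether dim signal hid differences among these groups was not tested. Tnfrsf10b rose by 2.28 ± 0.16 in DKO against WT (limma adjusted p = 2.98e-06, 4.84-fold), by 2.58 ± 0.16 against Rb KO (adjusted p = 2.76e-06) and by 2.22 ± 0.16 against E2f8 KO (adjusted p = 3.52e-05). Between E2f8 KO and WT the difference was 0.06 with a 95% interval of -0.30 to 0.41 (adjusted p = 0.826), and between Rb KO and WT it was -0.31 with an interval of -0.66 to 0.05. The interaction, which is the difference between DKO and Rb KO less that between E2f8 KO and WT, was 2.53 ± 0.23 (limma adjusted p = 0.000465). Only 0.077% of all genes (10 of 12980) were called for the interaction, and of the 7 tested members other than Eda2r, Tnfrsf10b was the 1 called. Eda2r had an interaction of 2.25 ± 0.28 and Pidd1 of 0.98 ± 0.27 (adjusted p = 0.495).

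**Figure D1:**
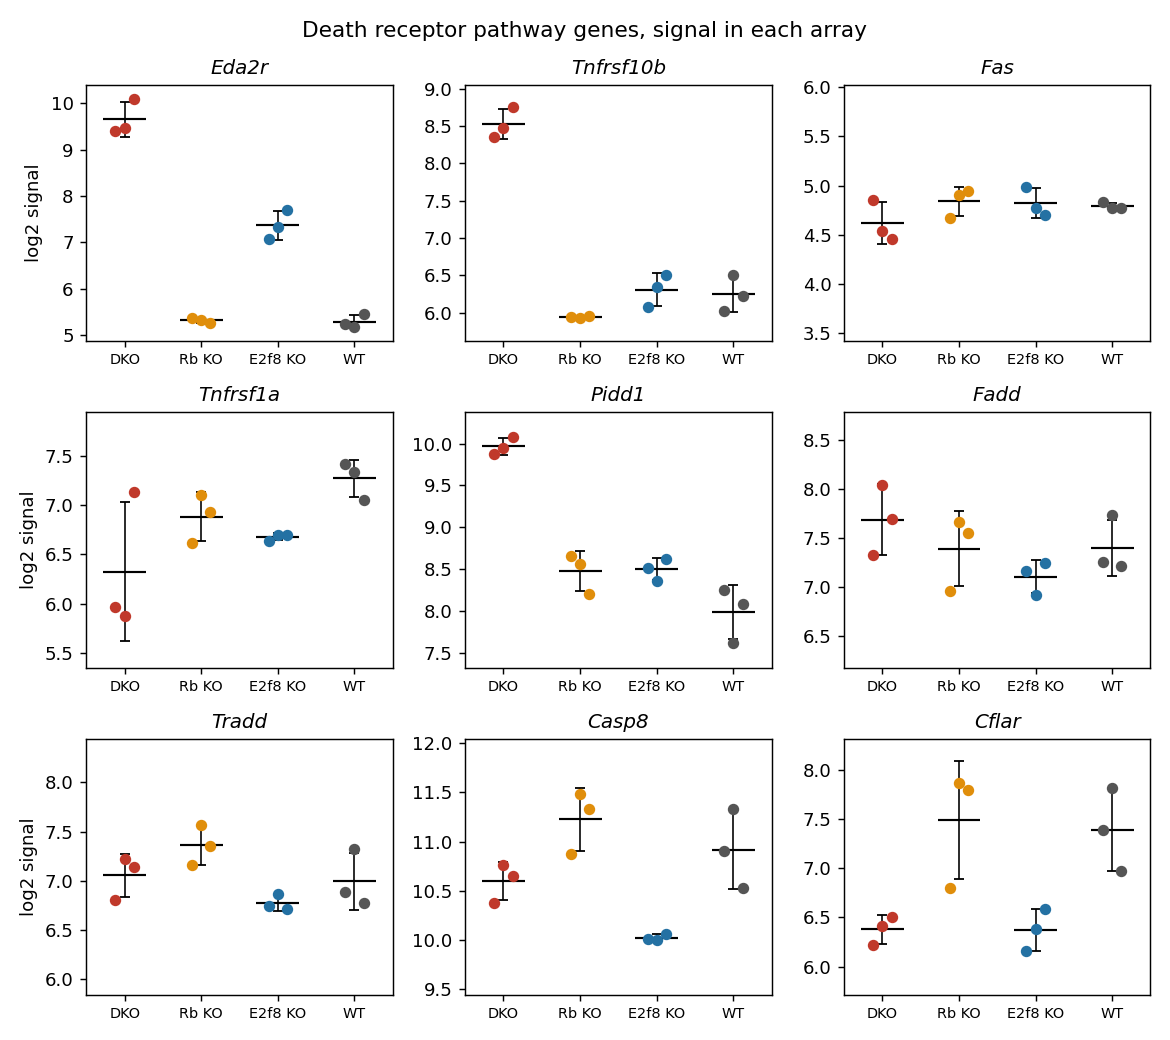
Log2 signal of 9 death receptor pathway genes in each of the 12 arrays, by genotype label. Points are arrays, lines are group means and bars are 1 SD (n = 3), and the vertical axes differ between genes and do not start at 0. The DKO arrays stand above all others for Eda2r, Tnfrsf10b and Pidd1, at 9.40 to 10.10, 8.36 to 8.75 and 9.88 to 10.08.

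Fas and Tnfrsf1a did not share this pattern. Fas, the receptor of the Fas ligand, was dim in every array, between 4.46 and 4.99, under the filter level. Its signals were 4.86, 4.54 and 4.46 in DKO and 4.83, 4.78 and 4.78 in WT, and groups overlapped. With no filter, the difference between DKO and WT was -0.18 with a 95% interval of -0.45 to 0.10 (limma adjusted p = 0.379). Tnfrsf1a, which encodes TNF receptor 1, had signals of 5.96, 5.88 and 7.14 in DKO, 6.62, 7.10 and 6.93 in Rb KO, 6.64, 6.70 and 6.70 in E2f8 KO and 7.42, 7.34 and 7.06 in WT. Replicate 3 of DKO, which also has the highest granulocyte markers (10.1), lay within the WT range, and the other DKO arrays lay below all WT arrays. Tnfrsf1a fell by 0.95 ± 0.27 in DKO against WT (limma adjusted p = 0.0142). The difference was -1.35 without replicate 3 of DKO, and the call was lost without replicate 1 (-0.77) or 2 (-0.72) of DKO. In E2f8 KO against WT it was -0.59 ± 0.27 (adjusted p = 0.124, and 0.0158 without replicate 3 of DKO). Against Rb KO the difference in DKO was -0.56 ± 0.27 (adjusted p = 0.126), and it passed at -0.97 without replicate 3 of DKO.

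Pidd1, the scaffold gene of the PIDDosome, rose in the arrays labelled DKO. Its signals were 9.88, 9.95 and 10.08 in DKO, 8.66, 8.56 and 8.21 in Rb KO, 8.52, 8.36 and 8.62 in E2f8 KO and 8.25, 7.62 and 8.09 in WT. The DKO arrays lay above all others, E2f8 KO lay above WT, and Rb KO overlapped with both E2f8 KO and WT. Pidd1 rose by 1.98 ± 0.19 against WT (limma adjusted p = 1.95e-05, 3.95-fold), by 1.49 ± 0.19 against Rb KO (adjusted p = 0.00018) and by 1.47 ± 0.19 against E2f8 KO (adjusted p = 0.00193). With the B cell marker mean as a covariate, the calls against WT (1.44, adjusted p = 0.0528) and against Rb KO (0.93, adjusted p = 0.271) were lost. The differences of the arrays labelled E2f8 KO and Rb KO from WT were 0.51 ± 0.19 (adjusted p = 0.068) and 0.49 ± 0.19 (adjusted p = 0.887). The partners of Pidd1 were read from a list of their own. Casp2, its caspase, rose by 0.94 ± 0.17 in DKO (adjusted p = 0.00097) and by 0.64 ± 0.17 in E2f8 KO (adjusted p = 0.0166) against WT. Cradd, which encodes the adaptor RAIDD, differed by -0.28 ± 0.16 (adjusted p = 0.192) in DKO and by -0.34 ± 0.16 (adjusted p = 0.131; named after its value was seen) in E2f8 KO against WT. Casp2 had 11.64, 11.68 and 11.81 in DKO and 11.08, 10.52 and 10.72 in WT, with no overlap.

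The adaptors Fadd and Tradd, which link the receptors to caspase-8 and to TNF receptor 1 signalling, were called in 0 of the 6 comparisons. Fadd had 7.33, 8.04 and 7.69 in DKO, 6.96, 7.66 and 7.55 in Rb KO, 7.16, 6.92 and 7.24 in E2f8 KO and 7.25, 7.73 and 7.21 in WT. The DKO arrays lay above those of E2f8 KO, with a difference of 0.58 ± 0.23 (limma adjusted p = 0.217), and every other pair of groups overlapped. Tradd had 6.80, 7.22 and 7.14 in DKO, 7.16, 7.56 and 7.35 in Rb KO, 6.74, 6.87 and 6.71 in E2f8 KO and 6.88, 7.32 and 6.77 in WT. For Tradd, DKO overlapped with each other group. The 95% interval of the difference between DKO and WT was -0.22 to 0.79 for Fadd and -0.32 to 0.45 for Tradd.

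Casp8 and Cflar, the caspase at the receptor complex and its inhibitor, were lower in the arrays labelled E2f8 KO than in WT. Casp8 had 10.38, 10.76 and 10.65 in DKO, 10.87, 11.48 and 11.33 in Rb KO, 10.005, 10.001 and 10.06 in E2f8 KO and 10.90, 11.33 and 10.53 in WT. The E2f8 KO arrays were the lowest of all, and DKO overlapped with WT. Casp8 fell by 0.90 ± 0.21 in E2f8 KO against WT (limma adjusted p = 0.00927, and 0.0502 at -0.69 without replicate 2 of WT). In DKO it fell by 0.63 ± 0.21 against Rb KO (adjusted p = 0.0319), a call that was lost when replicate 1 or 3 of DKO or replicate 2 or 3 of Rb KO was left out (-0.52, -0.66, -0.50 and -0.58). It differed by -0.32 ± 0.21 between DKO and WT (adjusted p = 0.267) and by 0.57 ± 0.21 between DKO and E2f8 KO (adjusted p = 0.177).

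Cflar had 6.22, 6.41 and 6.51 in DKO, 6.80, 7.87 and 7.80 in Rb KO, 6.16, 6.38 and 6.58 in E2f8 KO and 7.39, 7.82 and 6.97 in WT. On this probe set, the brightest, DKO and E2f8 KO overlapped with each other and lay below all arrays of Rb KO and WT. Cflar fell by 1.01 ± 0.27 in DKO (limma adjusted p = 0.0105) and fell by 1.02 ± 0.27 in E2f8 KO (adjusted p = 0.017) against WT, and it fell by 1.11 ± 0.27 in DKO against Rb KO (adjusted p = 0.00678). Without replicate 2 of WT the differences from WT were -0.80 in both and not called, and the E2f8 KO call was also lost without replicate 1 or 2 of that group (-0.91 and -1.02). Between DKO and E2f8 KO it differed by 0.00 with an interval of -0.59 to 0.60. The other Cflar probe sets, read from fits that kept every probe set of a gene, differed by -0.75 ± 0.25 and -0.998 ± 0.24 between DKO and WT. Both were called (limma adjusted p = 0.0311 and 0.00718). Between E2f8 KO and WT they differed by -0.60 ± 0.25 and -0.78 ± 0.24. The first of these was not called (adjusted p = 0.0951) and its groups overlapped, and the second was called (adjusted p = 0.0412). The last of these probe sets, with a mean of 5.33 over the 12 arrays, was under the filter level.

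**Figure D2:**
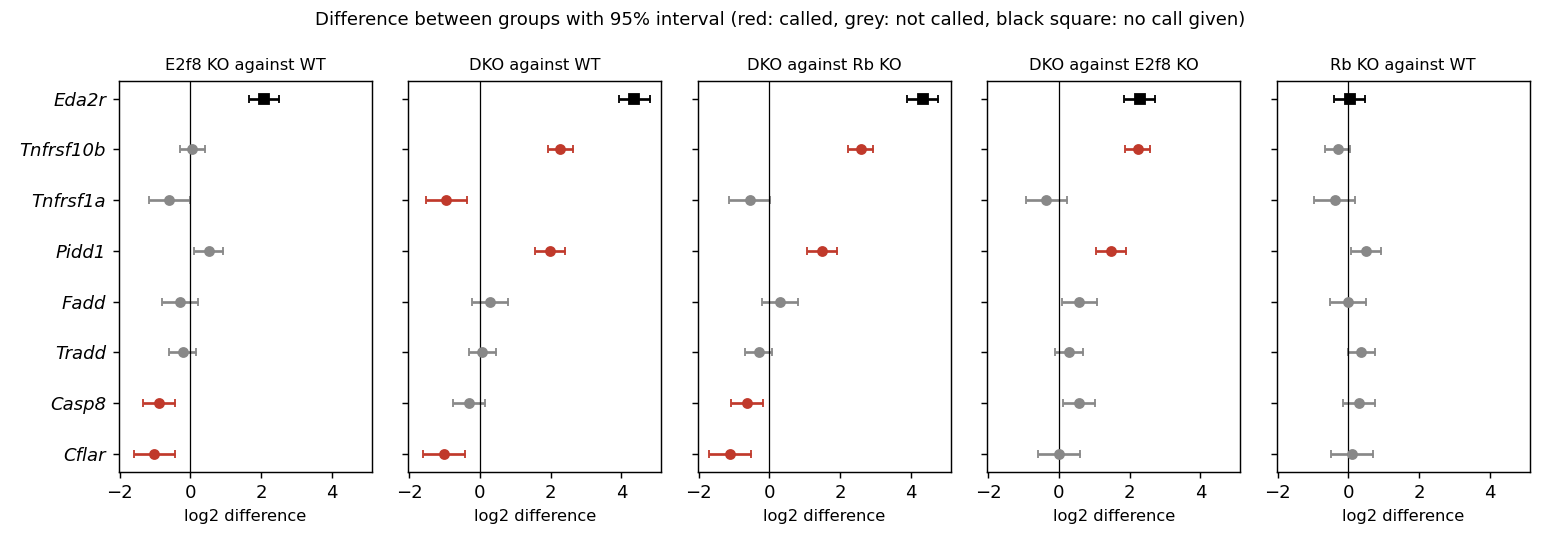
Log2 differences with 95% intervals for the 8 tested genes in 5 comparisons, with the first-named group minus the second. Eda2r and Tnfrsf10b stand at 4.36 and 2.28 in DKO against WT, and Casp8 and Cflar at -0.90 and -1.02 in E2f8 KO against WT, while Rb KO against WT has 0 called.

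Casp8, Cflar and Tnfrsf1a are set beside the B cell markers here. T cell markers (9 measured of 12) shared the B cell pattern over the groups, with means of 5.776 in DKO, 6.215 in E2f8 KO, 7.793 in Rb KO and 7.963 in WT. NK cell markers (2 of 8) had means of 6.566, 6.905, 7.685 and 7.869 in the same order. Replicate 1 of Rb KO was lowest of its group in both lists (7.04 and 7.17). The granulocyte list did not share the pattern, and the macrophage list shared it in part. Granulocyte markers were higher in E2f8 KO (8.002 to 8.46) than in WT (6.31 to 6.45). Macrophage markers were lowest in DKO (7.04 to 7.49), but also lower in Rb KO (8.48 to 8.72) than in WT (8.98 to 9.77). Which leukocyte type these members follow was not tested. Replicate 1 of Rb KO, with the lowest B cell marker mean of its group (9.27 against 11.6 and 11.5), also had the lowest Cflar (6.80), Casp8 (10.87), Tnfrsf1a (6.62), Fadd (6.96) and Tradd (7.16) of the group. Without that array Cflar differed by -1.45 and Casp8 by -0.81 between DKO and Rb KO, both called. The same array had the highest Pidd1 (8.66) and Eda2r (5.37) of Rb KO. Replicate 2 of WT, highest of its group in B cell markers (11.4), had the lowest Pidd1 of WT (7.62). In DKO and E2f8 KO the order was the other way. There replicate 3 had the highest B cell marker mean (7.11 and 7.80) and the highest Pidd1 (10.08 and 8.62). With the B cell marker mean of each array as a covariate, Cflar differed by 0.39 in E2f8 KO (adjusted p = 0.53) and 0.90 in DKO (adjusted p = 0.0922) against WT, and Casp8 in E2f8 KO by -0.0011 (adjusted p = 1). Tnfrsf1a in DKO then differed by 0.21 (adjusted p = 0.844). With the same covariate Tnfrsf10b rose by 2.70 in DKO against WT (adjusted p = 0.0013). Against E2f8 KO, whose B cell marker means lie nearest, Pidd1 rose by 1.33 in DKO with it (adjusted p = 0.00123). The Pidd1 calls in DKO against WT and against Rb KO were lost with this covariate, as given above. The slope on the covariate comes from differences within groups and is carried over the distance between groups, so these sizes are uncertain. The part of leukocyte RNA in the members' differences was not tested beyond these values.

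**Figure D3:**
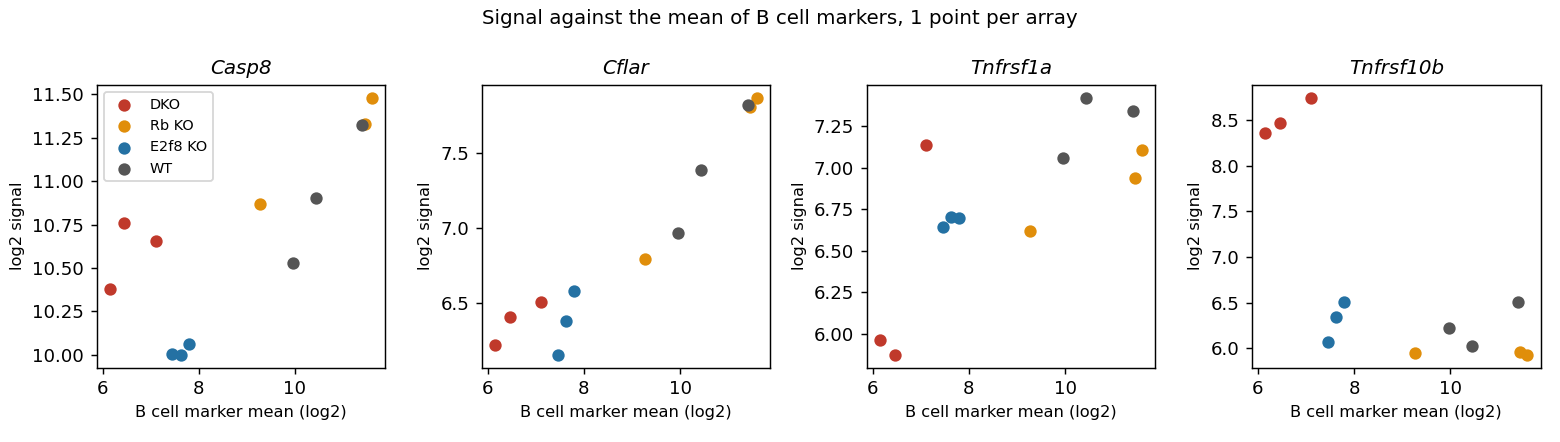
Log2 signal of Casp8, Cflar, Tnfrsf1a and Tnfrsf10b (vertical) against the mean log2 signal of 13 B cell markers (horizontal), 1 point per array, coloured by genotype label. The arrays with the highest B cell means hold the highest Cflar signals (7.80 to 7.87), whereas Tnfrsf10b is highest in the DKO arrays (8.36 to 8.75), which have the lowest B cell means.

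Over the 7 tested members other than Eda2r, the calls in each comparison are set beside the share of all genes called. In DKO against WT 2 rose and 2 fell (57.1% called), against 38.2% of all genes, 20.6% higher and 17.6% lower. In DKO against Rb KO 2 rose and 2 fell, against 37.1% of all genes, 19.5% higher and 17.6% lower. In E2f8 KO against WT 0 rose and 2 fell (28.6%), against 26.1% of all genes, 11.9% higher and 14.2% lower, so that the share was near the background. In DKO against E2f8 KO 2 rose and 0 fell (28.6%), against 2.37% of all genes, 1.73% higher and 0.647% lower. In Rb KO against WT 0 were called, against 0.0077% of all genes (1 of 12980, and 597 at an unadjusted p under 0.05). The median difference of the 7 members was 0.06 in DKO against WT and -0.29 in E2f8 KO against WT, beside medians of 0.00 and 0.06 over all genes. By size of the difference among 12980 genes in DKO against E2f8 KO, Eda2r, Tnfrsf10b and Pidd1 stood at ranks 9, 10 and 38 from the top.

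Of 67 other genes of the pathway, sorted by role, 57 were tested. In DKO against WT 14 rose and 16 fell (52.6% called), in E2f8 KO against WT 6 rose and 14 fell (35.1%), and in DKO against E2f8 KO 0 were called. The shares over all genes were 38.2%, 26.1% and 2.37% in the same comparisons. Of 3 tested ligand genes 1 fell in DKO against WT, Lta, which encodes lymphotoxin alpha, by 0.67 ± 0.19 (limma adjusted p = 0.0123). Of 9 other receptor genes, 2 rose and 2 fell in DKO, and 0 rose and 3 fell in E2f8 KO, against WT. Those that rose were Tnfrsf22, by 1.03 ± 0.28 (adjusted p = 0.0119), and Tnfrsf23, by 0.98 ± 0.21 (adjusted p = 0.00263), which encode mouse decoy receptors for TRAIL. Tnfrsf23 had 7.08, 6.58 and 6.89 in DKO and 5.78, 5.66 and 6.18 in WT, so that the groups did not overlap. In E2f8 KO against WT these decoy receptors differed by 0.02 ± 0.28 and 0.22 ± 0.21, with adjusted p of 0.973 and 0.465. Tnfrsf21 and Tnfrsf26 fell by 0.60 ± 0.20 and 0.76 ± 0.22 in that comparison (adjusted p = 0.0401 and 0.0263). Tnfrsf1b, of TNF receptor 2, fell by 1.44 ± 0.28 in DKO (adjusted p = 0.00158) and fell by 1.21 ± 0.28 in E2f8 KO (adjusted p = 0.00925). It had 7.09, 8.16 and 8.13 in Rb KO, lowest in replicate 1, the array with the lowest B cell marker mean of that group (9.27). B cell markers were also lower in DKO and E2f8 KO than in WT, and their part in the fall of Tnfrsf1b was not tested.

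In the TNF receptor complex and NF-kB arm, 4 of 23 genes rose and 8 fell in DKO, and 1 rose and 8 fell in E2f8 KO, against WT. Over all genes 20.6% were higher and 17.6% lower in DKO, and 11.9% higher and 14.2% lower in E2f8 KO. Birc3, which encodes the ubiquitin ligase cIAP2, fell by 2.03 ± 0.40 in DKO and fell by 2.06 ± 0.40 in E2f8 KO (limma adjusted p = 0.00167 and 0.004). Traf1, of a receptor-binding adaptor, fell by 1.84 ± 0.33 in DKO and fell by 1.56 ± 0.33 in E2f8 KO (adjusted p = 0.000948 and 0.0061). Tnfaip3, of the ubiquitin-editing inhibitor A20, fell by 1.22 ± 0.27 in DKO (adjusted p = 0.00314). Birc3 had 7.82, 9.53 and 9.51 in Rb KO, with replicate 1, the array with the lowest B cell marker mean of its group, again lowest. Traf1 (5.91), Tnfaip3 (7.09) and Ripk3 (6.78) were lowest of Rb KO in the same array. Of 3 necroptosis genes, 2 fell in DKO and 1 fell in E2f8 KO against WT, where 17.6% and 14.2% of all genes were lower. Ripk3, of a kinase that signals necroptosis, fell by 0.73 ± 0.19 in DKO (adjusted p = 0.00978) and fell by 0.70 ± 0.19 in E2f8 KO (adjusted p = 0.0194). Zbp1, the other that fell in DKO, had 6.29, 5.95 and 5.98 there and 6.38, 7.06 and 6.71 in WT.

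Of 9 genes of the mitochondrial link and the effector caspases, 5 rose and 1 fell in DKO, and 3 rose and 0 fell in E2f8 KO, against WT, where 38.2% and 26.1% of all genes were called. Apaf1, the scaffold of the apoptosome, rose by 1.09 ± 0.25 in DKO (limma adjusted p = 0.00383) and by 0.96 ± 0.25 in E2f8 KO (adjusted p = 0.0141). Dffb, of the nuclease that cuts DNA in apoptosis, rose by 1.04 ± 0.21 in DKO (adjusted p = 0.00168). Xiap, of a caspase inhibitor, rose by 0.996 ± 0.21 in DKO and by 0.75 ± 0.21 in E2f8 KO (adjusted p = 0.00213 and 0.0179). Bid, whose product links caspase-8 to mitochondria, was the 1 gene that fell, by 0.76 ± 0.25 in DKO (adjusted p = 0.0271; named after its value was seen). Among the other adaptors and modulators, 2 of 8 rose and 2 fell in DKO against WT. Faf1, of a Fas-associated factor, rose by 1.63 ± 0.19 in DKO and by 1.45 ± 0.19 in E2f8 KO (adjusted p = 5.1e-05 and 0.000552). Replicate 1 of Rb KO, lowest of its group in B cell markers (9.27), was its highest for Apaf1 (9.25), Xiap (8.15), Dffb (7.25) and Faf1 (10.09). Among other genes that rose in DKO, Casp2 (11.10) and Phlda3 (8.86) were also highest in that array. Tnfrsf22 (6.81), Tnfrsf23 (5.58) and Zmat3 (5.68) were lowest there. The part of the cell mixture in these rises was not tested.

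Of 10 tested genes known as p53 targets that are not death receptor genes, 8 rose and 1 fell in DKO, and 7 rose and 1 fell in E2f8 KO, against WT, with median differences of 1.60 and 1.10. The shares over all genes were 20.6% higher and 17.6% lower in DKO, and 11.9% higher and 14.2% lower in E2f8 KO. Phlda3, an Akt inhibitor gene, rose by 3.71 ± 0.24 in DKO against WT (limma adjusted p = 1.92e-06). In DKO against E2f8 KO 1 of the 10 was called, where 2.37% of all genes were called, and the median difference of the 10 was 0.34. The called gene was Zmat3, of an RNA-binding protein, which rose by 1.76 ± 0.32 (adjusted p = 0.0125). Tnfrsf10b and Pidd1 were also called in that comparison. DKO and E2f8 KO are set against the same WT arrays here, so that the counts of both comparisons share them.

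**Figure D4:**
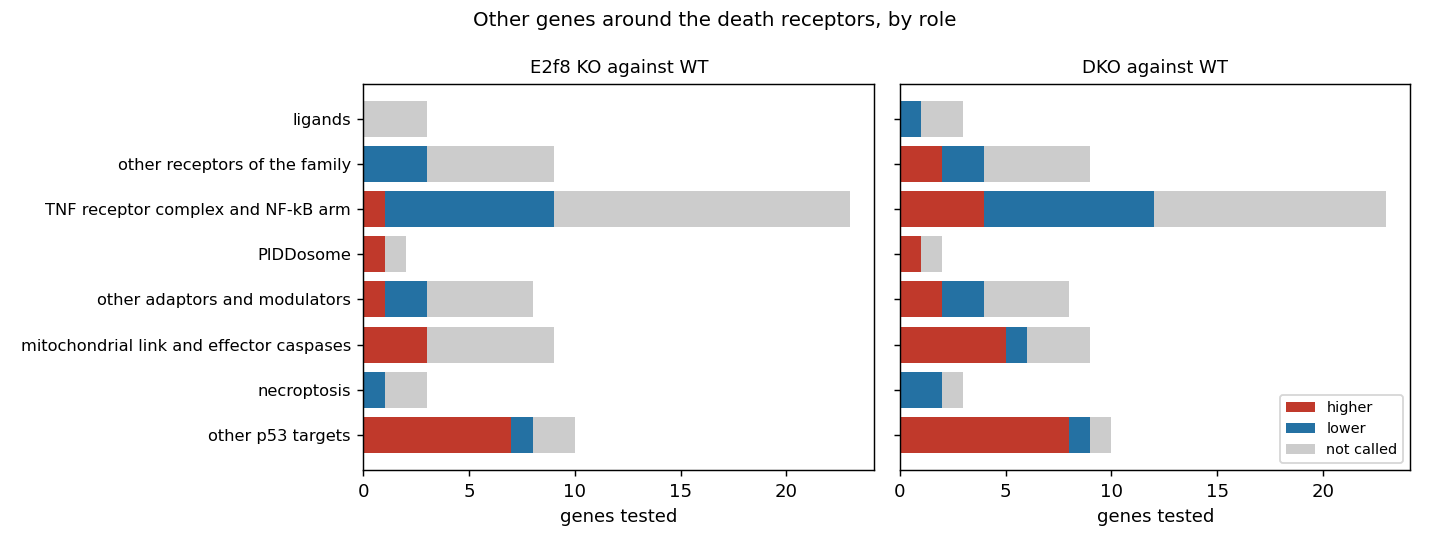
Number of tested genes called higher, called lower or not called (horizontal) in each role list around the death receptors (vertical), for E2f8 KO against WT and DKO against WT. The p53 targets are mostly higher, at 7 and 8 of 10, and the TNF receptor complex list has 8 lower of 23 in both.

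The genes most like each member over the 12 arrays were found by Pearson's r, as a description. The arrays share their groups and cell mixture. For Eda2r they were Fhl1 (r = 0.982), Rnf121 (0.980) and Zfp524 (0.977), and for Tnfrsf10b Snx16 (0.972), Podxl (0.959) and Tmem63b (0.957). For Pidd1 they were Mad2l2 (0.983), Casp9 (0.982) and Rpusd1 (0.982). Casp9, of the initiator caspase of the apoptosome, is on the effector list and rose by 0.66 ± 0.14 in DKO against WT (limma adjusted p = 0.00293). For Cflar the closest were Slc41a1 (0.996), Btk (0.9945) and Psd4 (0.992), and for Tnfrsf1a Niban1 (0.980), Tyrobp (0.972) and Sort1 (0.954).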

How the data were processed

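The deposited table holds log2 values (the scale was inferred from the values) for 35557 probe sets on 12 arrays, used unchanged. The submitters' processing notes name MAS5 without a version, and whether it made these values is uncertain. How arrays were normalized is not stated. Array medians were 6.22 to 6.35. Probe sets were named by the platform annotation, updated by gene number (21698 of 21789 with 1 symbol matched). After the lowest 40% by mean were removed (14223), the brightest probe set stood for each of 12980 genes.

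The 4 labelled groups were fitted together in limma 3.58.1 (R 4.3.3) with a variance trend and 8 residual degrees of freedom, and two-sided p-values were adjusted by Benjamini-Hochberg over all genes in each of 6 comparisons. The fit was tested on simulated data. Members and lists were chosen with earlier results of these data known. All members were named. Other names were taken from up to 3 called genes with the largest differences and no overlap per role list in E2f8 KO or DKO against WT. The 3 most correlated genes per member were the other source. Only some of the genes that met these rules are named in the text. The number of arrays limits precision, and p-values measure the spread between these arrays. Alternatives covered filters, normalization, centring, probe set means, the trend, weights for arrays, fits of the compared groups alone, the replicate block, leukocyte covariates and leaving out each array. A fit without both arrays low in Xist was added after seeing the data.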

Additional observations from a re-analysis of the deposited data

Results flagged for a closer look

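Tnfrsf10b is singled out because the effect of the E2f8 label differed between backgrounds. DKO differed from Rb KO by 2.58 and E2f8 KO from WT by 0.06, and the test of the difference between these effects, the interaction, gave 2.53 ± 0.23 (SE, limma adjusted p = 0.000465, higher in 3 of 3 DKO arrays). It lay between 2.40 and 2.64 when each array was left out in turn and was called in 12 of 12 such fits. Outside DKO the means of Tnfrsf10b, 5.94 to 6.31, were near the filter level of 5.84, and whether dim signal hid differences was not tested.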

How the results depend on the processing

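Of 707 refits of 30 member differences, 646 kept direction and side of the threshold, 24 changed direction, 20 lost a call and 17 gained one. The 30 include those of Eda2r, and most of the others were taken for an unadjusted p under 0.05 in the main fit. The tally is therefore a description of chosen differences. Rb KO against WT kept 0 calls among members throughout. The replicate numbers were entered as a replicate block: all 6 counts of called members kept their values (2, 0, 4, 4, 2 and 1) and Tnfrsf10b rose by 2.28 in DKO against WT (adjusted p = 5.51e-06). Same-numbered arrays correlated between -0.38 and 0.57 in their deviations from group means, over 0.1 in 7 of 18 pairs. Differently numbered arrays were not compared in this way, so whether the numbers mark pairs was not tested.

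Leaving out 1 array gave 0 to 3 called members in E2f8 KO against WT (main 2; 0 without replicate 2 of WT, 1 without replicate 1 or 2 of E2f8 KO), 3 to 4 in DKO against WT and against Rb KO, with the interaction at 1 and DKO against E2f8 KO at 2 throughout. Eda2r in Rb KO against WT ranged from -0.0226 to 0.11 and Tnfrsf10b in E2f8 KO against WT from -0.0588 to 0.185. Without both arrays low in Xist, the counts of called members were 3, 0, 4, 4, 2 and 1, and Tnfrsf10b in E2f8 KO against WT was -0.0452.

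Removing the lowest 60% took Tnfrsf10b and Tnfrsf1a out of the test, and left 0 called for the interaction, 2 in DKO against WT and 1 in DKO against E2f8 KO. Array weights, whose estimation stopped before convergence, called 6 members in E2f8 KO against WT and 4 in DKO against E2f8 KO, and turned Tnfrsf10b in E2f8 KO against WT to -0.0727. With the B cell covariate the counts were 0 in E2f8 KO against WT, 2 in DKO against WT and against Rb KO, and 5 in DKO against E2f8 KO. All members called with it were higher in DKO. Pidd1 was not among those called against WT or Rb KO, so in each a member was newly called higher. With the macrophage mean added the counts were 0 in E2f8 KO against WT and 1 each in DKO against WT and against Rb KO. With 1 and then both covariates, the differences that turned were, in E2f8 KO against WT, Cflar (0.39 and 0.46) and Tnfrsf1a (0.26 and 0.87), with Casp8 at 0.23 under both. In DKO against WT they were Casp8 (0.89 and 1.36), Cflar (0.90 and 1.03) and Tnfrsf1a (0.21 and 1.42), and in DKO against Rb KO Casp8 (0.64 and 0.81), Cflar (0.89 and 0.93) and Tnfrsf1a (0.64 and 1.11). With both, Tnfrsf1a stood at 0.55 in DKO against E2f8 KO and Tnfrsf10b at 0.0211 in Rb KO against WT. The cause was not tested.

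Over all genes, the count of calls moved by more than 1.5 times in several cases. In E2f8 KO against WT (3388) it was 1531 to 4384 on leaving out 1 array, 2095 without the arrays low in Xist, 6649 with array weights, and 311 and 110 with 1 and both covariates. In DKO against WT (4952) and against Rb KO (4819) it was 1009 and 107, and 526 and 459, with the covariates. In DKO against E2f8 KO (308) it was 79 to 712 on leaving out 1 array, 53 without the arrays low in Xist, 2683 with array weights, 1262 with only the groups compared and 1432 with the B cell covariate. For the interaction (10) it was 2 to 49 on leaving out 1 array, 6 with the lowest 60% removed, 59 with array weights, and 68 and 88 with the covariates. In Rb KO against WT (1) it was 1 to 140, 14 with quantile normalization, 101 with array weights, 0 with only the groups compared, and 61 and 2 with the covariates.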
